A study of Mus musculus with 11 samples.

Results

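Osteoclast fusion and resorption genes were examined in the distal tibia, ground whole, of mice with and without depletion of bone marrow adipocytes. The 10 genes, chosen by name, were Acp5, Ctsk, Calcr, Oscar, Dcstamp, Ocstamp, Atp6v0d2, Nfatc1, Car2 and Clcn7, out of 22600 genes in the merged count table. All 10 passed the filter on low counts, which left 16496 genes for testing. Each library came from 1 mouse, 4 of the Control and 7 of the BMAd-DTA genotype. All mice were 24 weeks of age, on a mixed C57BL6/SJL background and fed ad libitum. Every mouse, controls included, carried Osterix-FLPo and FAC, a FLPo-dependent Cre placed in the Adipoq gene, so that Cre is made only where both Osterix and Adipoq have been active, and which is known to lower circulating adiponectin. BMAd-DTA mice carried in addition ROSA-DTA, from which Cre releases diphtheria toxin A, a toxin that kills the cell making it. Recombination is incomplete in younger mice and also reaches a small subset of adipogenic stromal cells. Because whole bone was ground, more osteoclasts and more RNA per osteoclast cannot be told apart in any value below. Nor can either be told apart from RNA of other cells that make these genes, or from a changed share of other tissues.

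Osteoclasts are the cells that dissolve bone. They form when precursors of the monocyte and macrophage lineage, stimulated by M-CSF and RANKL, switch on the transcription factor NFATc1 and fuse into cells with many nuclei. The mature cell seals off a patch of bone, pumps in protons and chloride to dissolve mineral, and secretes cathepsin K and other proteases to digest collagen. Of the genes followed here, Nfatc1 drives the programme, Oscar and Calcr are receptors, Dcstamp, Ocstamp and Atp6v0d2 act in cell fusion, Car2 and Clcn7 serve acid secretion, and Ctsk and Acp5 encode secreted enzymes. Car2 is also abundant in red cells and their precursors, and Nfatc1 and Clcn7 are used by many cell types.

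On GRCm38, Acp5 lies at chr9:22126727-22135711, Ctsk at chr3:95499256-95509362, Calcr at chr6:3685680-3764714, Oscar at chr7:3609813-3616157 and Dcstamp at chr15:39745930-39760938. Ocstamp lies at chr2:165393760-165400405, Atp6v0d2 at chr4:19876841-19922605, Car2 at chr3:14886273-14900770 and Clcn7 at chr17:25133391-25162104. No member lies beside another. The 250 bases before an annotated start are shown for 3 members whose levels moved together, Ctsk, Oscar and Acp5, and for Clcn7, whose level varied little. They are RefSeq promoter windows on GRCm38.p6, printed 5′ to 3′ on the strand of the gene. Capitals mark TGGAAA or its reverse complement, the core bound by NFAT factors, and CACGTG, the E-box bound by MITF and TFE factors.
Ctsk, chr3:95498960-95499209, plus strand: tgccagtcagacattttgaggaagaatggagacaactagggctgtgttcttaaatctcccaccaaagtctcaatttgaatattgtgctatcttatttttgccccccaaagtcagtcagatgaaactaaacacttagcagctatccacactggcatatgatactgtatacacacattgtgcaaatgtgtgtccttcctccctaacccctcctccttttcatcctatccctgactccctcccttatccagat
Oscar, chr7:3616158-3616407, minus strand: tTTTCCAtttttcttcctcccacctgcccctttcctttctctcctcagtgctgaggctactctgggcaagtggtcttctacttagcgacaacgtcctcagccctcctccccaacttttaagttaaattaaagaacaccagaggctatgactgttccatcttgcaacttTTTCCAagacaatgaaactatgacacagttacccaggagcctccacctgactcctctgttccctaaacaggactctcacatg
Acp5, chr9:22130599-22130848, minus strand: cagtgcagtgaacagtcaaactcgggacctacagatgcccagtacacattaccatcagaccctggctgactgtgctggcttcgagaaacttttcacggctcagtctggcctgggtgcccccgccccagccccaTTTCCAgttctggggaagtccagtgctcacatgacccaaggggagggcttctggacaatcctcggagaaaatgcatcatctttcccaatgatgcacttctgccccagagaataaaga
Clcn7, chr17:25133141-25133390, plus strand: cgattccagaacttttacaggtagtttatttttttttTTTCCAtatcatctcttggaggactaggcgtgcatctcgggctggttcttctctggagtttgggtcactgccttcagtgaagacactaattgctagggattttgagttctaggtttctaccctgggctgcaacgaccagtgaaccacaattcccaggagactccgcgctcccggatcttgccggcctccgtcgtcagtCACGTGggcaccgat
TGGAAA was found on either strand 2 times in the Oscar window, 76 and 243 bases before the start, and 1 time in the windows of Acp5 and Clcn7. It was not found in the Ctsk window. Over all 32851 RefSeq windows of this length, 18.6% held TGGAAA and 6.02% held CACGTG, which was found in the Clcn7 window 9 bases before the start. TGANTCA, the core bound by AP-1, was in 6.75% of all windows and in none of the 4. Acp5 has 2 further windows and Clcn7 and Calcr 1 and 2, none of which held any of these motifs. These are matches of letters, not measured binding. No window was used for Dcstamp, Ocstamp, Atp6v0d2, Nfatc1 and Car2.

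Library totals were between 16969529 and 18637663 counts. Levels are given as CPM, the counts of a gene scaled to a common library size by the TMM method. The tibiae held variable amounts of skeletal muscle RNA. In 7 libraries (Control replicates 1, 2 and 3 and BMAd-DTA replicates 1, 4, 6 and 7) the mean log2 CPM of 12 muscle genes was 3.62 to 5.98, and in the other 4 (Control replicate 4 and BMAd-DTA replicates 2, 3 and 5) it was 0.60 to 0.87. Fold changes of all members within these sets, which were defined after the data had been seen, are plotted beside the pooled ones. The log2 fold changes in the muscle-rich and muscle-poor sets were 0.76 and 2.34 for Dcstamp, 0.93 and 1.501 for Ocstamp, 0.64 and 1.98 for Oscar, 0.33 and 1.37 for Calcr, 0.33 and 0.31 for Nfatc1 and 0.053 and 0.33 for Clcn7, and those of the other members stand beside their values.

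Set against exon length, Car2 was the most abundant member in controls, at 403 ± 120.1 CPM per kb (SD, n = 4), followed by Acp5 at 173 ± 90.7 CPM per kb and Ctsk at 122 ± 86.7 CPM per kb. In BMAd-DTA mice Acp5 had the highest mean, at 335 ± 153 CPM per kb (SD, n = 7), with Ctsk at 295 ± 150.5 and Car2 at 280.1 ± 61.9 CPM per kb. There Acp5, Ctsk and Car2 lay within 1 SD of each other, so their order is not certain. In controls too, Acp5 and Ctsk did not differ beyond their spread. In controls, Nfatc1 was at 19.8 ± 2.08, Clcn7 at 14.2 ± 1.29 and Atp6v0d2 at 12.7 ± 4.91 CPM per kb, of which the last pair lay within 1 SD of each other. Oscar at 3.04 ± 1.71, Dcstamp at 1.76 ± 1.503 and Ocstamp at 1.38 ± 0.97 CPM per kb were scarce, and their spreads overlapped. Calcr, the calcitonin receptor, was at 0.12 ± 0.062 CPM per kb, which is only 3 to 33 counts per library, so its values carry a large counting error.

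Most members had a higher level in BMAd-DTA tibiae, by about 1 on the log2 scale for the genes particular to osteoclasts, but none passed the test over all genes. The fitted log2 fold change was above 0 for 9 of the 10 members and below 0 for Car2, with a median of 0.95. Over all tested genes the median was 0.0018, and 1.8% of genes (297 of 16496) had a larger log2 fold change than the median member. That share does not allow for the spread between mice, which was wide for most members, as given below. Nor does it allow for the members having been chosen with earlier results of these data known. By the quasi-likelihood test of edgeR, adjusted by Benjamini-Hochberg over all tested genes, 0 of the 10 members had an adjusted p under 0.05, where 0.0788% of all genes did (13 genes). At an unadjusted p under 0.05 the test marked 7 members, 6 of them higher and Car2 lower, beside 7.89% of all genes that were higher and 8.53% that were lower. The 6 higher members varied together across mice, as given below, so they do not count as separate observations. DESeq2, which is the tool of the study, called 1 member, Atp6v0d2, and 5.42% of the genes to which it gave an adjusted p. In no member were the groups fully separated, while every BMAd-DTA library was above every control in 1.78% of all genes and below in 1.04%.

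**Figure D1:**
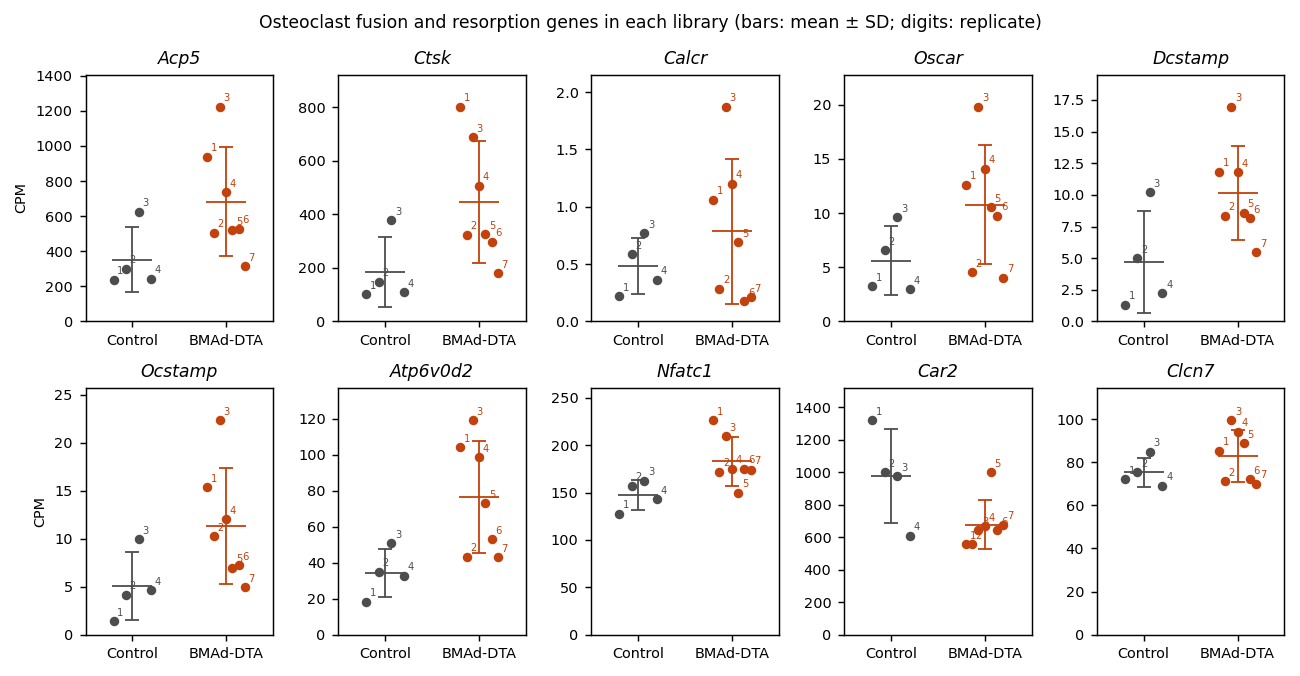
CPM of the 10 genes in each library (points, numbered by replicate) for Control (grey, n = 4) and BMAd-DTA (orange, n = 7), with the mean ± SD and axes that start at 0. In 9 of the 10 panels Control replicate 3 is the highest control, and BMAd-DTA replicates 1 and 3 stand at the top of most panels.

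Of the enzymes, Ctsk encodes cathepsin K, which cuts collagen in the resorption pit. Ctsk was at 102, 148, 379 and 109 CPM in the 4 controls and at 179.9 (lowest), 326 (median) and 802 CPM (highest) in BMAd-DTA mice. BMAd-DTA replicates 1, 3 and 4 were above every control, and the other 4 lay between Control replicate 2 and Control replicate 3. The mean was 446 ± 228 CPM with depletion (SD, n = 7) against 185 ± 131 CPM without (SD, n = 4), a log2 fold change of 1.27 (SE, standard error, 0.45, adjusted p = 0.173 by edgeR's quasi-likelihood test). Acp5 encodes tartrate-resistant acid phosphatase, the enzyme stained to count osteoclasts. The study used this stain in caudal vertebrae, a different bone, and measured stained cells rather than RNA. It reported no effect of depletion on osteoclast number or eroded surface there. Acp5 was at 237, 301, 624 and 244 CPM in controls and at 313, 529 and 1223 CPM (lowest, median and highest) in BMAd-DTA mice. Again BMAd-DTA replicates 1, 3 and 4 exceeded every control, and each BMAd-DTA mouse exceeded the other 3 controls once Control replicate 3 was set aside. For Acp5 the log2 fold change came to 0.95 (SE 0.36, adjusted p = 0.205 by the same quasi-likelihood test).

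Without Control replicate 3, the highest control for Acp5 and Ctsk, the log2 fold change of Ctsk was 1.90 and that of Acp5 was 1.39. Ctsk then passed the threshold (adjusted p = 0.0468 by edgeR's quasi-likelihood test) and Acp5 did not (adjusted p = 0.0615). Leaving out the highest control raises the difference by construction, and leaving out a low one lessened it. Without Control replicate 1 the values were 1.07 for Ctsk and 0.80 for Acp5 (adjusted p = 0.454 and 0.495 by the same quasi-likelihood test), and without Control replicate 4 they were 1.09 and 0.81 (adjusted p = 0.302 and 0.349). Within the muscle-rich libraries the log2 fold changes were 1.09 for Ctsk and 0.70 for Acp5, and within the muscle-poor libraries, which hold 1 control, 2.03 and 1.62.

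The fusion genes had a similar pattern at far lower levels. Dcstamp, a membrane protein needed for precursors to fuse, was at 1.32, 5.01, 10.2 and 2.23 CPM in controls. In BMAd-DTA mice Dcstamp was at 5.49, 8.61 and 16.96 CPM (lowest, median and highest), so that every BMAd-DTA library exceeded 3 of the 4 controls and 3 exceeded Control replicate 3. The log2 fold change was 1.12 (SE 0.46, adjusted p = 0.238 by edgeR's quasi-likelihood test), and 1.84 without Control replicate 3, where it passed the threshold (adjusted p = 0.0497). It was 0.81 without Control replicate 1 and 0.89 without Control replicate 4, both low controls (adjusted p = 0.518 and 0.393 by edgeR's quasi-likelihood test). Ocstamp, its partner in fusion, was at 1.43, 4.18, 9.93 and 4.67 CPM in controls and at 4.96, 10.3 and 22.4 CPM (lowest, median and highest) in BMAd-DTA mice. Of these, 4 exceeded every control, and the log2 fold change was 1.17 (SE 0.48, adjusted p = 0.239 by the same quasi-likelihood test). Without Control replicate 3 it was 1.72 and without Control replicate 1 it was 0.86 (adjusted p = 0.0797 and 0.523).

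Atp6v0d2 encodes the d2 subunit of the vacuolar proton pump, which also takes part in fusion. Atp6v0d2 was at 18.4, 35.2, 51.0 and 32.9 CPM in controls and at 43.3, 73.3 and 119 CPM (lowest, median and highest) in BMAd-DTA mice. The 2 lowest BMAd-DTA libraries, replicates 2 and 7, lay below Control replicate 3 alone, and the other 5 exceeded every control. With a log2 fold change of 1.16 and a standard error of 0.33 it had the smallest p of the members (adjusted p = 0.114 by edgeR's quasi-likelihood test, 0.0348 by DESeq2). The log2 fold change was 1.10 within the muscle-rich and 1.26 within the muscle-poor libraries, the narrowest range among the members with a log2 fold change near 1. Atp6v0d1, the subunit of the same pump used by cells in general, was at 114 ± 2.95 CPM in controls (SD, n = 4) and 122 ± 9.01 CPM with depletion (SD, n = 7), with a log2 fold change of 0.097.

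The receptors were less certain. Oscar, an activating receptor that binds collagen, was at 3.25, 6.60, 9.63 and 2.96 CPM in controls and at 4.05, 10.6 and 19.8 CPM (lowest, median and highest) in BMAd-DTA mice. BMAd-DTA replicates 2 and 7 lay among the controls and 5 libraries exceeded all of them, with BMAd-DTA replicate 6 at 9.74 CPM just above Control replicate 3. The log2 fold change was 0.94 (SE 0.44, adjusted p = 0.310 by edgeR's quasi-likelihood test). Calcr ranged from 0.22 to 0.77 CPM in controls and from 0.18 to 1.87 CPM in BMAd-DTA mice. BMAd-DTA libraries lay on both sides of the controls, 3 above all of them and 2 below, so no difference was detectable at this depth (log2 fold change 0.70, SE 0.63).

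Nfatc1, the transcription factor that sets off the osteoclast programme, differed by much less. Nfatc1 was at 128, 157, 163 and 143 CPM in controls and at 150.1, 175 and 227 CPM (lowest, median and highest) in BMAd-DTA mice. Only BMAd-DTA replicate 5 lay within the range of the controls. The difference was small and so was the spread between mice (log2 fold change 0.31, SE 0.11, adjusted p = 0.162 by edgeR's quasi-likelihood test), and it stayed between 0.23 and 0.33 under every alternative fit that kept both genotypes whole or split the libraries by muscle. Clcn7, the chloride and proton exchanger of the resorbing membrane and of lysosomes in general, was at 72.1, 75.3, 84.8 and 69.1 CPM in controls and at 70.0, 85.4 and 99.5 CPM (lowest, median and highest) in BMAd-DTA mice. Its groups overlapped, with a log2 fold change of 0.14 (SE 0.11, adjusted p = 0.560 by the same quasi-likelihood test).

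Car2 differed from the other members in direction. Car2 encodes carbonic anhydrase 2, which supplies the protons for acid secretion. Car2 was at 1322, 999.7, 977 and 610.0 CPM in controls and at 557 (lowest), 645 (median) and 999.1 CPM (highest) in BMAd-DTA mice. Control replicate 4 lay among the BMAd-DTA libraries and BMAd-DTA replicate 5 among the controls. The log2 fold change was -0.53 (SE 0.19, adjusted p = 0.181 by edgeR's quasi-likelihood test). Within the muscle-rich libraries, 3 controls and 4 BMAd-DTA mice, it was -0.79 and passed the threshold (adjusted p = 0.0402). Within the muscle-poor libraries the sign turned, to 0.27, with Control replicate 4 as the lone control (adjusted p = 0.863).

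**Figure D2:**
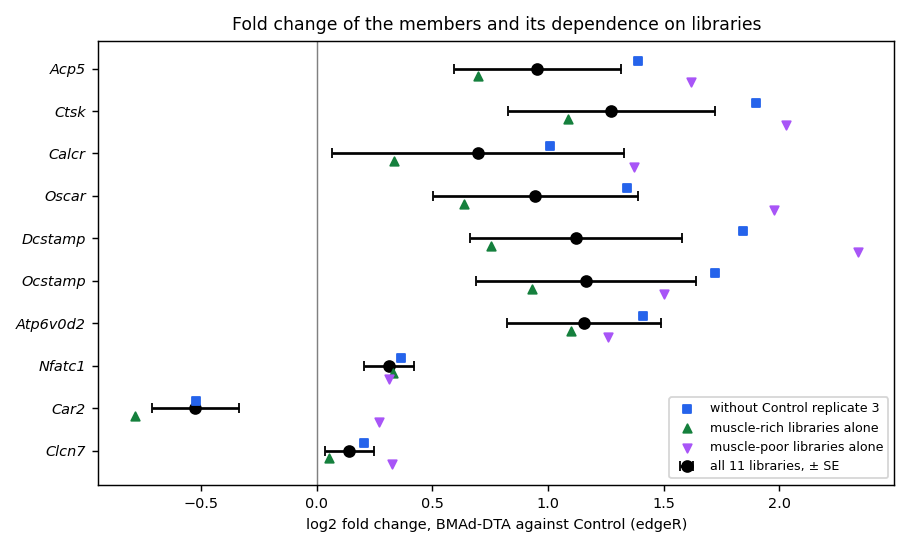
Log2 fold change of each member between BMAd-DTA and Control from edgeR, with all 11 libraries (black points, bars ± 1 standard error), without Control replicate 3 (blue squares), and within the muscle-rich (green) and muscle-poor (purple) libraries. Points of 9 members stay right of 0 in all 4 fits, while Car2 runs from -0.79 to 0.27.

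Each member was also tested alone by a two-sided exact permutation test of the difference in mean log2 CPM over all 330 splits into 4 and 7, which can give no p below 0.00606. The exact permutation p was 0.0182 for Atp6v0d2 and for Nfatc1, 0.0364 for Ctsk, and 0.0485 for Acp5, Dcstamp and Ocstamp. It was 0.0909 for Car2, 0.121 for Oscar, 0.279 for Clcn7 and 0.576 for Calcr. These values are not adjusted for the number of genes. They were fragile: without 1 library the p of Atp6v0d2 reached 0.05 when Control replicate 1, 2 or 4 was left out, and that of Nfatc1 without Control replicate 1 or 4. For Ctsk the p was at 0.05 or above in 6 of the 11 such tests (without Control replicate 1, 2 or 4 or BMAd-DTA replicate 1, 3 or 4), and for Ocstamp in 7 (the same libraries and BMAd-DTA replicate 2). For Acp5 and Dcstamp it was so in 9, all but those without Control replicate 3 or BMAd-DTA replicate 7. The p of Car2 was below 0.05, 0.0333 at the lowest, without Control replicate 4 or BMAd-DTA replicate 5.

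Differences between mice of the same genotype were larger for these genes than for nearly all others. Among the 12973 genes that averaged 50 counts or more, the SD of log2 CPM within genotype had a median of 0.17. It was 0.65 for Acp5, 0.80 for Ctsk, 0.82 for Oscar, 0.84 for Dcstamp, 0.88 for Ocstamp and 0.61 for Atp6v0d2, all between the 96.3 and the 98.3 percentile. For Nfatc1 (0.18) and Clcn7 (0.19) it was close to the median gene, at the 56.8 and 57.1 percentile. The highest library exceeded the lowest by 15.6 times for Ocstamp, 12.8 times for Dcstamp, 7.86 times for Ctsk and 5.17 times for Acp5, but by 1.77 times for Nfatc1 and 1.44 times for Clcn7.

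The variable members ranked the mice in much the same order. For the 7 members other than Nfatc1, Car2 and Clcn7, Control replicate 3 was the highest control for all 7 and Control replicate 1 the lowest for 6. BMAd-DTA replicate 3 ranked 1 or 2 among all 11 libraries for all 7, and BMAd-DTA replicate 7 was the lowest of its group for 6. Averaged over the 7 genes, log2 CPM ran from 2.87 in Control replicate 1 to 4.76 in Control replicate 3, and from 3.78 in BMAd-DTA replicate 7 to 5.78 in BMAd-DTA replicate 3, so the genotypes overlapped.

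**Figure D3:**
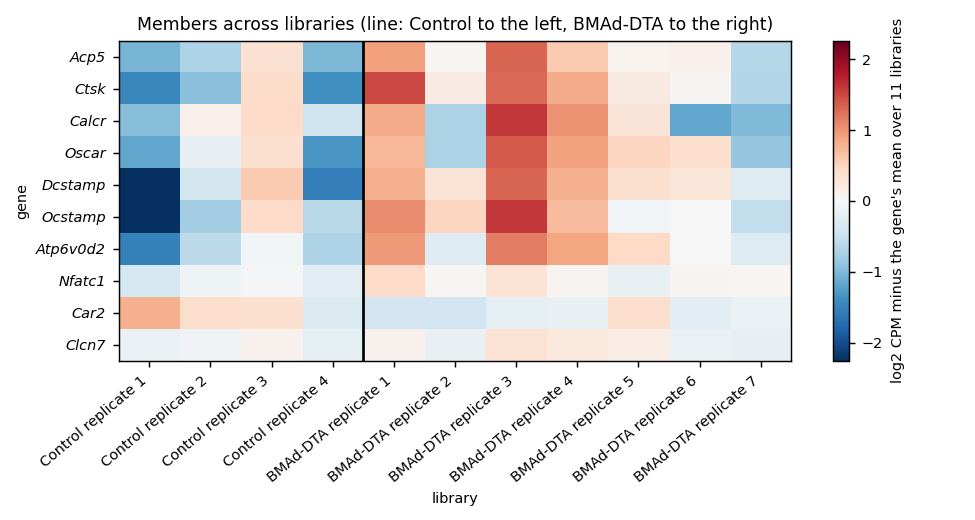
Log2 CPM of each member (rows) in each library (columns), minus the mean of the gene over all 11 libraries (red higher, blue lower). The upper 7 rows share their pattern, with Control replicates 1 and 4 low and BMAd-DTA replicates 1, 3 and 4 high, whereas Nfatc1 and Clcn7 are pale and Car2 is highest in Control replicate 1.

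Relations between members were computed over the 11 libraries for all 45 pairs, of which 36 had a permutation p of Pearson's r below 0.05 after Benjamini-Hochberg adjustment and 33 did so for Spearman's rho. Acp5 and Ctsk had r = 0.98 and rho = 0.96 (permutation p = 3e-05 and 1e-05, the latter the smallest that 100000 resamples can give, adjusted p = 0.000225 and 0.0001125). Without the 2 libraries farthest from the median of Acp5, r was 0.99, and r was 0.97 after each genotype was centred on its own mean. Dcstamp and Ocstamp had r = 0.93 and rho = 0.95 (permutation p = 1e-05 and 8e-05, adjusted p = 0.00015 and 0.00045). Without the 2 libraries farthest from the median of Dcstamp, r was 0.97, and it was 0.89 after centring. All 21 pairs of the 7 variable members had an r between 0.66 and 0.98, and between 0.71 and 0.97 after centring. Clcn7, despite its small range, had an r of 0.69 to 0.93 with these 7, and Nfatc1 of 0.55 to 0.86. The r of Car2 with the same 7 was -0.66 to -0.13, and -0.46 to 0.16 after centring. The libraries share their muscle content and other tissue makeup, whose part in these relations was not tested.

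**Figure D4:**
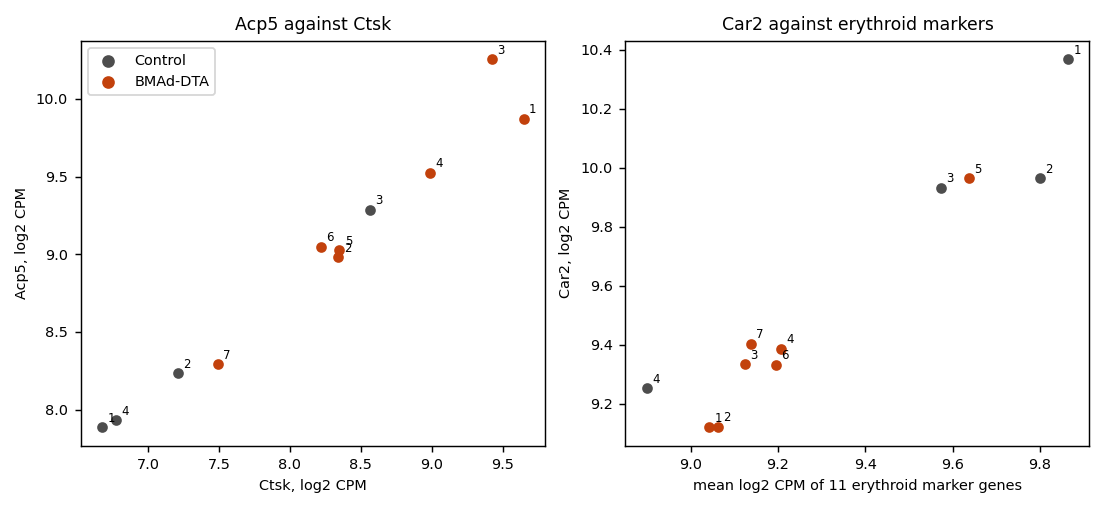
Left, log2 CPM of Acp5 against Ctsk, and right, log2 CPM of Car2 against the mean log2 CPM of 11 erythroid marker genes, 1 point per library (grey Control, orange BMAd-DTA, numbered by replicate). On the left the points of both genotypes lie along 1 line, with Control replicate 3 among the BMAd-DTA mice, and on the right 4 libraries (Control replicates 1, 2 and 3 and BMAd-DTA replicate 5) stand apart at the upper right.

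Among the same genes, those whose centred log2 CPM was most like Acp5 were Ctsk (r = 0.97), Slc6a8, a creatine transporter (0.97), Mmp14, a collagen-cutting membrane protease (0.96), Gpr137b, a lysosomal membrane protein (0.96), and Slc9b2, a sodium and proton exchanger found in osteoclasts (0.95). For Ctsk they were Slc9b2 (r = 0.98), Acp5 (0.97), Mmp14 (0.96), Slc6a8 (0.96) and Cd109 (0.96). Of the other members, Oscar stood 52nd in likeness to Acp5, Ocstamp 62nd, Atp6v0d2 67th, Dcstamp 84th, Clcn7 130th and Nfatc1 401st of 12972 genes, and Car2 7578th. The genes most like Nfatc1 were Tmco3 (r = 0.92), Zbtb7b (0.91), Tnip2 (0.91), Fosl2, an AP-1 factor (0.90), and St8sia6 (0.90). Among the genes most like Car2 were Slc25a37, the mitochondrial iron carrier of red cell precursors (r = 0.98), Ctse (0.98), Uros, an enzyme of heme synthesis (0.98), and Rhag, a red cell membrane protein (0.97). All of these r values are descriptions over 11 libraries, picked as the highest of many.

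Erythroid markers moved with Car2. Of 12 such genes 11 were tested, all 11 were fitted lower with depletion, 7 of them at an unadjusted p under 0.05 (8.53% of all genes were lower) and none at an adjusted one by edgeR. DESeq2 called 5, beside 5.42% of all genes, and the median log2 fold change was -0.46. Rhag had a log2 fold change of -0.66 and Gata1 of -0.46, while the globin genes Hbb-bs and Hba-a1 had -0.029 and -0.075. The summed level of the list was 13954 to 31017 CPM in controls and 18355 to 32122 CPM in BMAd-DTA mice. By the mean log2 CPM of the markers the libraries formed 2 sets, so no pooled correlation is given: 4 libraries at 9.57 to 9.87 had Car2 at 977 to 1322 CPM, and 7 libraries at 8.90 to 9.21 had Car2 at 557 to 677 CPM. Within the latter, r was 0.58 and rho 0.71 (permutation p = 0.183 and 0.0876, n = 7), and r was 0.77 without the 2 farthest libraries. With the erythroid score as a covariate the log2 fold change of Car2 was -0.13 (adjusted p = 0.611 by edgeR's quasi-likelihood test). Of the 10 members 1, Atp6v0d2, had an unadjusted p under 0.05, as did 1735 of all 16496 genes, a similar share. In that fit the log2 fold changes of Ctsk (1.16), Dcstamp (1.18), Atp6v0d2 (1.08), Acp5 (0.89) and Calcr (0.68) stayed near their size. That of Ocstamp fell from 1.17 to 0.82 and that of Nfatc1 from 0.31 to 0.23. Oscar rose from 0.94 to 1.16 and Clcn7 from 0.14 to 0.19. The median over the 10 members was 0.85.

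Markers of other cell types were read beside the members. Osteoblast and osteocyte markers were higher in 12 of 12 genes (1 called by edgeR and 9 by DESeq2), by a median of 1.06 on the log2 scale, and their summed level was 3075 to 13196 CPM in controls and 15617 to 36483 CPM in BMAd-DTA mice. Adipocyte markers were lower in 10 of 10 (1 called by edgeR and 3 by DESeq2), with a median of -1.10. Over all genes the shares called were 0.0788% by edgeR and 5.42% by DESeq2. Macrophage markers, from the lineage that gives rise to osteoclasts, were higher in 5 and lower in 7 of 12, with a median of -0.10, and their summed level was 1707 to 1779 CPM in controls and 1522 to 1969 CPM in BMAd-DTA mice. Of the macrophage list, DESeq2 called Cd68, a lysosomal protein also abundant in osteoclasts (log2 fold change 0.43). Neutrophil markers had a median of -0.054, B lymphocyte markers of 0.53, T lymphocyte markers of 0.35, endothelial markers of -0.10, chondrocyte markers of 0.19 and skeletal muscle markers of -0.93. All 9 tested chondrocyte markers were higher, 3 of them at an unadjusted p under 0.05 (7.89% of all genes were), and DESeq2 called 1. Their summed level was 498 to 965 CPM in controls and 1146 to 1389 CPM in BMAd-DTA mice, without overlap. The part of these cell types in the members' values was not tested. In 90 relations between members and 9 marker scores (muscle left out because its libraries form sets), 12 had an adjusted permutation p below 0.05 by Pearson's r. Of these, 5 were with the osteoblast score, which did not overlap between the genotypes, and 1 was Car2 with the erythroid score, whose libraries form 2 sets, so no pooled r is given for them. The 5 with the osteoblast score were Acp5, Ctsk, Dcstamp, Ocstamp and Atp6v0d2. After centring their r with that score was 0.52 to 0.82, and within the 7 BMAd-DTA libraries alone it was 0.15 to 0.63. The other 6 relations were with the T lymphocyte score, for Acp5, Ctsk, Dcstamp, Ocstamp, Atp6v0d2 and Nfatc1. Their r was 0.76 to 0.89 (adjusted permutation p = 0.0167 to 0.0484) and their rho 0.64 to 0.75 (adjusted permutation p = 0.211 to 0.242). Without the 2 libraries farthest from the median of the score r was 0.47 to 0.66, and after centring it was 0.51 to 0.80. Within the 7 BMAd-DTA libraries alone r was 0.23 to 0.52. T lymphocyte markers summed to 165 to 229.7 CPM in controls and 232 to 313 CPM in BMAd-DTA mice, which did not overlap. Their mean log2 CPM overlapped only through Control replicate 3, at 4.23, where the lowest BMAd-DTA library was at 4.19. The pooled r and its p therefore include the difference between genotypes.

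Other genes of the osteoclast pathway were followed in 7 lists by role. Of their 86 genes, all tested, 65 had a log2 fold change above 0 and 21 below, with a median of 0.11. By edgeR's quasi-likelihood test 0 passed an adjusted p of 0.05, 16 had an unadjusted p under 0.05, all of them higher (7.89% of all genes were), and DESeq2 called 3 genes, Csf1, Timp2 and Mmp14 (5.42% of all genes to which it gave an adjusted p).

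**Figure D5:**
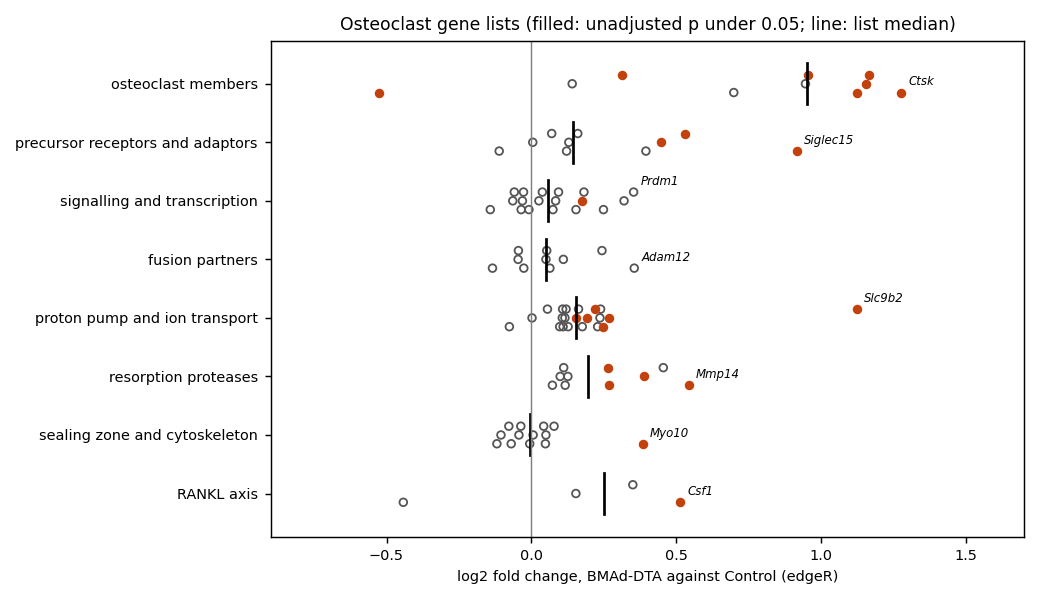
Log2 fold change between BMAd-DTA and Control (edgeR) of each gene (points) in the 10 members and the 7 other osteoclast lists, filled where the unadjusted p is under 0.05, with the median of the list as a line and the gene with the largest value named. The members' median, 0.95, lies to the right of every other list's, which run from -0.0061 to 0.25.

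The ligands come first. Csf1 encodes M-CSF, which keeps osteoclast precursors alive. Csf1 was at 88.6, 81.0, 111.1 and 93.0 CPM in controls and at 111.5, 128 and 163 CPM (lowest, median and highest) in BMAd-DTA mice. All 7 BMAd-DTA libraries exceeded every control, the lowest by a small margin. The same held for 2 of the 86 pathway genes, Csf1 and Timp2, beside 1.78% of all genes. The log2 fold change was 0.51 (SE 0.11, adjusted p = 0.0720 by edgeR's quasi-likelihood test, 0.00212 by DESeq2). Il34, the other ligand of the M-CSF receptor, had a log2 fold change of -0.44 (SE 0.26) with 4 of 7 BMAd-DTA libraries below every control. Tnfsf11, which encodes RANKL, was at 4.01 ± 1.21 CPM in controls (SD, n = 4) and 5.11 ± 1.47 CPM with depletion (SD, n = 7), and Tnfrsf11b, its decoy receptor osteoprotegerin, at 15.1 ± 3.62 and 16.7 ± 1.496 CPM. Neither difference exceeded the spread between mice (log2 fold changes 0.35 and 0.15, adjusted p = 0.533 and 0.627 by edgeR's quasi-likelihood test).

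Among precursor receptors and adaptors, 9 of 10 genes had a log2 fold change above 0, and the median was 0.14. The largest were Siglec15 (0.91), a receptor of fusing osteoclasts, and Trem2 (0.53), and the smallest Itgb3 (-0.11), the β3 integrin subunit, and Fcer1g (0.0044), an adaptor of Oscar. Trem2 was at 13.7, 24.3, 28.8 and 23.4 CPM in controls and at 23.2, 33.4 and 37.7 CPM (lowest, median and highest) in BMAd-DTA mice, of which 6 exceeded every control. The signalling and transcription list had a median of 0.056, with 11 of 18 genes above 0, and held Bcl6 (-0.065), a repressor of the programme, Prdm1 (0.35), which silences such repressors, and Fos (0.32), a partner of NFATc1. Its only gene at an unadjusted p under 0.05 was Tfeb (0.17), a factor for lysosomal genes. Fusion partners other than the members had a median of 0.051, with 6 of 10 above 0, between Cd47 (-0.13) and Dock5 (-0.046) and Adam12 (0.35) and Sh3pxd2a (0.24), and none had an unadjusted p under 0.05.

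At an unadjusted p under 0.05, 6 of 21 genes of the proton pump and ion transport list were higher (7.89% of all genes were). The list was above 0 in 20 of 21 genes by small amounts, with a median of 0.15. The exception in size was Slc9b2 (1.12, SE 0.41), which was at 6.28, 10.7, 18.3 and 7.62 CPM in controls and at 9.22, 17.02 and 44.4 CPM (lowest, median and highest) in BMAd-DTA mice. Its highest and lowest libraries were those of Ctsk, BMAd-DTA replicate 1 and Control replicate 1, and Control replicate 3 was above the median BMAd-DTA library. Atp6v1b2 (0.27), a subunit of the pump, was next, and Atp6v0a1 (-0.076) and Ostm1 (0.0019), the partner of Clcn7, were the smallest. Tcirg1, the a3 subunit that takes the pump to the resorbing membrane, had a log2 fold change of 0.22.

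All 10 genes of the resorption protease list were above 0, with a median of 0.19. Of these, 4 had an unadjusted p under 0.05 (7.89% of all genes were higher at that threshold). Mmp14 (0.54, SE 0.15, adjusted p = 0.0992 by edgeR's quasi-likelihood test, 0.0107 by DESeq2) was at 94.4, 97.3, 127 and 97.7 CPM in controls and at 109.8, 141 and 192 CPM (lowest, median and highest) in BMAd-DTA mice, with 6 libraries above every control. Timp2 is an inhibitor of metalloproteinases rather than a protease. Timp2 was at 328, 346, 388 and 351 CPM in controls and at 421, 467 and 514 CPM (lowest, median and highest) in BMAd-DTA mice. The groups did not overlap, and 1.78% of all genes were separated in the same direction. The log2 fold change was 0.39 (SE 0.070, adjusted p = 0.0663 by edgeR's quasi-likelihood test, 4.38e-05 by DESeq2). Mmp9 had a log2 fold change of 0.45, and Ctss (0.072) and Ctsl (0.099), cathepsins of many immune cells, were the smallest. The sealing zone and cytoskeleton list had a median of -0.0061, with 6 of 13 genes above 0, between Vcl (-0.12) and Tln1 (-0.11) and Myo10 (0.38) and Rab7 (0.078). Csf1, Timp2 and Mmp14 are also made by bone-forming cells, whose markers are given above.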

How the data were processed

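Strand-specific mRNA libraries from 4 Control and 7 BMAd-DTA distal tibiae, 1 per mouse, were analysed. The authors checked reads with FastQC 0.11.9, used STAR with its default parameters on mm10, and tested genotype with DESeq2. The values used are the counts per gene that the authors deposited, whole numbers without normalization, in a merged table equal to 1 strand of the per-library counts. The annotation release is not given in the sources used here. Multimapping reads are not in these counts.

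The test was edgeR 4.0.16 in R 4.3.3 (filterByExpr, TMM, glmQLFit and glmQLFTest, two-sided, Benjamini-Hochberg over 16496 genes, threshold 0.05). The standard error is the log2 fold change over the square root of F. Levels are CPM, and log2 CPM has a prior count of 2. Exact tests enumerated all splits, and correlations used 100000 permutations. DESeq2 1.42.0 and limma 3.58.1 were alternatives. The steps were tested on simulated data. The gene models, for lengths and positions, were those of GENCODE M21, and promoter windows those of RefSeq.

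The members and lists were chosen with earlier results of these data known. The text names all members, the RANKL axis whole, the 2 largest and 2 smallest log2 fold changes of each pathway list, the 5 genes most like Acp5, Ctsk, Car2 and Nfatc1, and markers beside a member's result. Atp6v0d1, Tcirg1, Tfeb and Cd68 were added after their values were seen. Some genes that these rules pick are not reported here. Groups came from the labels, which give no replicate numbers, and replicates were numbered in accession order. No 2 libraries of a group were alike within sampling noise (chi-square per gene at least 18.4, where sampling noise alone gives about 1). Nothing states that mice came from separate litters, so p values measure the spread between these mice.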

Additional observations from a re-analysis of the deposited data

Results flagged for a closer look

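Of 20 groups of libraries examined (10 members in each genotype), 3 held a library that lay far from the others by Dixon's test, where chance gives about 1 in 20. Acp5 was at 624 CPM in Control replicate 3, where the other 3 controls were between 237 and 301 CPM. Ctsk was at 379 CPM in the same library, where the other 3 were between 102 and 148 CPM. Car2 was at 999.1 CPM in BMAd-DTA replicate 5, where the other 6 were between 557 and 677 CPM. The first pair share a library and, with r = 0.98 between the genes, are not independent of each other.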

How the results depend on the processing

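The log2 fold change of the 9 members other than Car2 was above 0 in all 12 other fits that gave it a value, with each of the 11 libraries left out and within both muscle sets, and that of Car2 was below 0 except in the muscle-poor libraries (0.27). The median of the 10 members was 0.67 to 1.44 over these settings. A prior count of 0.5 changed no exact permutation test of a member past or back over 0.05. The number of members with an adjusted p under 0.05 was 0 except for 1 in DESeq2, 1 in the muscle-rich libraries and 2 without Control replicate 3, with a range of 0 to 2 when 1 library was left out. With an unadjusted p under 0.05, 7 members became 1 with the erythroid score as a covariate and 3 in the muscle-rich libraries. With 1 library left out they were 3 to 8 (3 without Control replicate 1, 4 without Control replicate 2 or 4, 8 without Control replicate 3). The number of all genes at that threshold moved too. It was 2708 of 16496 in the main fit, 1735 of 16496 with the erythroid score and 2044 of 16376 in the muscle-rich libraries. There were 1784 of 16766 without Control replicate 1, 2239 of 16799 without Control replicate 2, 3283 of 16757 without Control replicate 3 and 2659 of 16774 without Control replicate 4. Of the other pathway genes DESeq2 called 3, limma-voom with sample quality weights 2, the robust quasi-likelihood fit 1, and the fits without 1 library 0 to 2 (2 without Control replicate 3). Over all genes, the 13 called became 845 in DESeq2, 238 in limma-voom, 32 in the robust fit, 20 with DESeq2 size factors, 3 with the muscle score and 0 with the erythroid score as a covariate, 103 in the muscle-rich and 2 in the muscle-poor libraries. Without 1 library they ranged from 0 (without Control replicate 1 or 2 or BMAd-DTA replicate 1 or 6) to 292 (without Control replicate 3), with 89 without Control replicate 4, 3 without BMAd-DTA replicate 4 and 8 without BMAd-DTA replicate 3. The causes were not tested. Calcr has no value with a minimum of 1 CPM in 4 libraries. The muscle sets were chosen after seeing the data, and the muscle-poor set assumes that its lone control varies like the BMAd-DTA mice. No paired analysis was possible because the labels give no replicate numbers shared between the groups. Calcr had 3 to 33 counts per library, while Acp5, Ctsk and Car2 had over 1000 in every library.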
